A study of Mus musculus with 12 samples.

Results

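The 8 genes described here encode innate receptors of phagocytes: the C-type lectins Clec4d, Clec4e, Clec4n, Clec5a, Clec7a and Clec12a, and the immunoglobulin-like receptors Trem1 and Trem3. They were chosen by name, with earlier results of the same arrays known, and every probe set annotated to only 1 of these symbols was taken. Of the 8 genes, 7 had such a probe set, 10 probe sets in all, among 18194 genes on the array. Clec12a was not analysed here. The values compared are those the choice was made with, so the fold changes and adjusted p-values of these genes below are a description, and no p-value of a member is independent support.

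The values come from 12 Affymetrix arrays of mouse leukemia cells, 3 for each of 4 groups. A fusion of MLL drove each leukemia, MLL-AF9 in 6 arrays and MLL-NRIP3 in the other 6, and the cell genotype was either Rictor wild type (control) or Rictor deletion (RictorΔ/Δ). Rictor is an essential subunit of the kinase complex mTORC2. All 4 groups share the sort of K+G– bone marrow cells after a first transplantation, taken once CD45.2+ cells passed 50% of white cells in the blood of the recipients. The labels also give peripheral blood as host tissue. The sources used here do not say how Rictor was deleted, how old the mice were, or whether the arrays within a group are separate animals. The p-values therefore cover the spread among arrays, which may be technical.

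C-type lectins bind sugars, lipids and other ligands on microbes and damaged cells, and Trem receptors amplify such signals on neutrophils and monocytes. Clec5a, Trem1 and Trem3 have no signalling motif of their own and pair with the adaptor DAP12 (gene Tyrobp), while Clec4d (MCL), Clec4e (Mincle) and Clec4n (Dectin-2) signal through the Fc receptor gamma chain (gene Fcer1g). Clec7a (Dectin-1, the receptor of fungal beta-glucan) carries its own activating motif, and Clec12a (MICL) an inhibitory one. The activating receptors act through the kinase Syk, the adaptor Card9 and NF-kB.

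Some facts of the arrays bear on all results. The 5 Rictor probe sets did not move 1 way with the deletion: the brightest read 86.8 ± 4.80 in MLL-AF9 controls and 87.5 ± 9.26 in deleted cells, and 113 ± 26.0 and 104 ± 18.6 in MLL-NRIP3 leukemia (SD, n = 3 each). In MLL-AF9 leukemia 2 dimmer ones were lower without overlap, from 30.9 ± 1.84 to 25.3 ± 1.10 and from 21.9 ± 1.13 to 16.5 ± 2.52, and in MLL-NRIP3 leukemia another went from 49.7 ± 14.8 to 113 ± 44.8. The deleted part of the gene is not given, so these probe sets do not check the labels. In MLL-AF9 leukemia the X-inactivation transcript Xist lay between 2348 and 2441 in controls and between 34.3 and 207.6 in deleted cells, and the Y-linked Eif2s3y between 3.43 and 7.81 and between 149 and 186, so genotype and sex of the cells cannot be told apart there. In MLL-NRIP3 leukemia both groups were alike in these genes. MLL-NRIP3 control arrays 1 and 2 stood apart, since their spiked-in hybridization controls averaged 11.22 and 10.62 on the log2 scale and those of the other 4 MLL-NRIP3 arrays 9.38 to 9.59, and a 5′ to 3′ ratio of Gapdh of 0.562 and 0.738 against 0.881 to 0.965. The 8 markers of the sorted leukemia cells, Kit and Ptprc among them, were all above the filter on dim genes. Median intensity was 8.16 to 8.36 on the MLL-AF9 and 13.6 to 14.2 on the MLL-NRIP3 arrays, so levels of the models are not on 1 scale. Precision is limited by having 3 arrays a group.

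The first comparison asked what loss of Rictor did to the receptors in MLL-AF9 leukemia. Clec5a rose 3.87-fold, Trem3 2.16-fold, Trem1 1.66-fold and Clec4d 1.35-fold in Rictor-deleted cells. Clec4e was close to background with and without Rictor, Clec7a was bright with and without it, and Clec4n was not above the filter. Of the 6 receptor genes tested, 4 were called higher and none lower at a limma adjusted p under 0.05, where 3.8% of 12573 genes were called higher, 4.46% lower and 8.26% either way. Nothing is read from that count since the choice of the genes used this contrast. With 16 added to each intensity before the log2, folds of dim genes come out too small. In RNA from many cells, more cells with a transcript and more transcript per cell cannot be told apart.

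**Figure D1:**
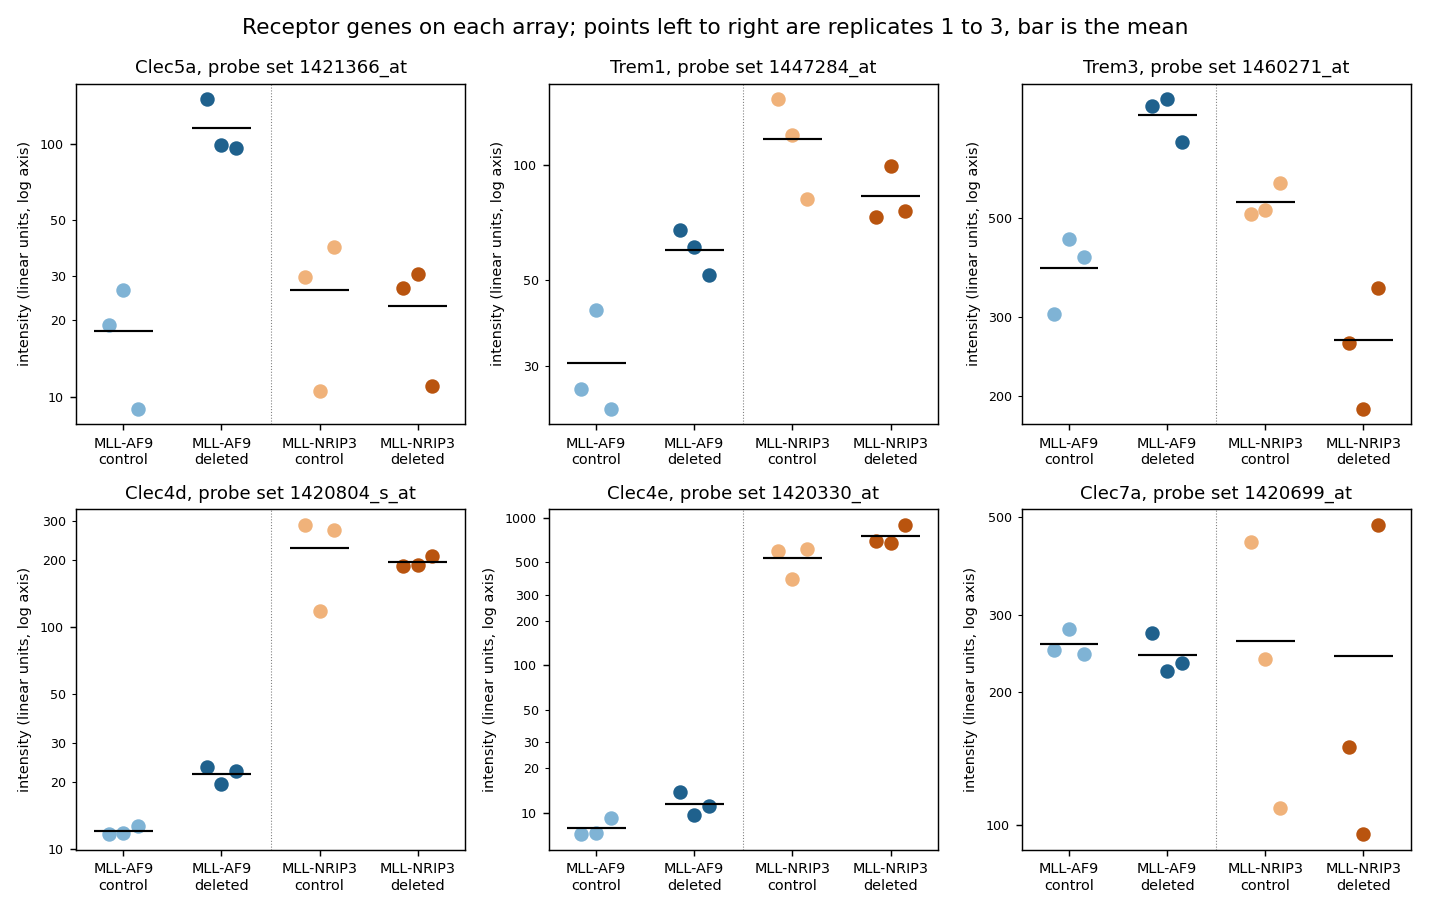
Intensity of the 6 tested receptor genes on each of the 12 arrays (log axis, linear units), by group, with the mean of 3 arrays as a bar; points from left to right are replicates 1 to 3, and a dotted line parts the models, which are not on 1 scale. The 3 MLL-AF9 deleted arrays lie above the 3 controls for every gene except Clec7a, as for 11.4% of all genes, whereas in MLL-NRIP3 leukemia the deleted arrays lie below the controls for Trem3 and above them for Clec4e.

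All 3 DAP12 partners rose. Clec5a (MDL-1, a receptor of myeloid cells) read 19.2, 26.4 and 8.96 on the 3 MLL-AF9 control arrays and 150, 99.2 and 96.7 on the deleted arrays. Every deleted array was thus above every control, by a log2 fold change of 1.95 ± 0.19 (SE, limma adjusted p = 9.3e-05). Trem3, which in mice sits beside Trem1, was the brightest of the 3 and went from 305, 447 and 408 to 886, 919 and 736, at 1.11 ± 0.12 (SE, adjusted p = 2.3e-04). Trem1, an amplifier of inflammatory signals in neutrophils and monocytes, went from 26.1, 42.0 and 23.2 to 67.5, 61.2 and 51.6, at 0.73 ± 0.14 (SE, adjusted p = 0.0073). The groups did not overlap for any of these genes, while 11.4% of all genes had MLL-AF9 deleted arrays that all lay above the controls, 15.7% below and 27.1% either way. The second Trem1 probe set was dim but moved the same way, from 4.74, 5.47 and 5.84 to 8.11, 9.28 and 7.60, at 0.19 ± 0.04 (SE, adjusted p = 0.014 with each probe set tested on its own). Its MLL-AF9 control arrays all lay under the filter on dim genes, which was set on the mean over all arrays. It passed that filter only through the MLL-NRIP3 arrays, with means of 18.2 in controls and 17.1 in deleted cells. Its adjusted p is therefore not separate support for the rise of Trem1.

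The stretch of 250 bases before the annotated start is shown for 4 receptors that rose or sit side by side, Clec5a and Trem1 as DAP12 partners and the neighbours Clec4d and Clec4e. The sequences are from RefSeq (GRCm38.p6), read 5′ to 3′ on the strand of the gene, with matches of 3 motifs of myeloid and inflammatory factors in capitals.
Clec5a, chr6:40585806-40586055, minus strand: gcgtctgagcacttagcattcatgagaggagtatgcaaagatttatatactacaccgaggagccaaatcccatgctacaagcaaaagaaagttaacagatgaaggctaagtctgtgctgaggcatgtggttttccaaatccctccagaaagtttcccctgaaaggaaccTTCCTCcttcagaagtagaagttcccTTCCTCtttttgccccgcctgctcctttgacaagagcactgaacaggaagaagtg
Trem1, chr17:48232489-48232738, plus strand: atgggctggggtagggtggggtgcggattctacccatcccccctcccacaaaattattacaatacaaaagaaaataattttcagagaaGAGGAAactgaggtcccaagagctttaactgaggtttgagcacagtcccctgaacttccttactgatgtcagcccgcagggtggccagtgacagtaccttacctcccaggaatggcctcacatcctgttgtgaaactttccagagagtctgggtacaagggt
Clec4d, chr6:123261857-123262106, plus strand: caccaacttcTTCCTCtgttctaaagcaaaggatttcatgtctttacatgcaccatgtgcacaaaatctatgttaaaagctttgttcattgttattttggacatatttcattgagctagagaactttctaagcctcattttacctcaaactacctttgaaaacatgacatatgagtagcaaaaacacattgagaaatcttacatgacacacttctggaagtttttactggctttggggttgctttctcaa
Clec4e, chr6:123289872-123290121, minus strand: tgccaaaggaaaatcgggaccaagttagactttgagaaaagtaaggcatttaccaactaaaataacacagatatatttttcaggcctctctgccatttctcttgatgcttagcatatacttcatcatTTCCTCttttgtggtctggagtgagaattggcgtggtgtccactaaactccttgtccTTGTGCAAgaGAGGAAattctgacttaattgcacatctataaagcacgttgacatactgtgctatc
On both strands, the PU.1 core GAGGAA was searched along with the C/EBP motif TTGCNNAA and the AP-1 motif TGANTCA, none of which overlapped here. GAGGAA was found in 1 to 2 copies in each of the 6 windows the table holds for the 8 genes, Clec7a and Clec12a included, and in 23.1% of 27025 windows of that length. In Clec5a its copies begin 81 and 55 bases before the start, in Clec4e 123 and 56 bases. A C/EBP match was found in Clec4e, 66 bases before the start, and in Clec12a, at 140 bases, and in 9.55% of all windows. An AP-1 match was found in Clec12a alone of the 6, at 213 bases, and in 6.87% of all windows. A match is a description of letters and not a binding site.

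The partners of the Fc receptor gamma chain were dim in MLL-AF9 leukemia. Clec4d read 11.7, 11.8 and 12.8 on the control arrays and 23.4, 19.7 and 22.6 on the deleted arrays. These values do not overlap, at a log2 fold change of 0.43 ± 0.06 (SE, limma adjusted p = 8.8e-04). Its only probe set is of the type (suffix _s_at) whose probes may match more than 1 transcript. Clec4e, the receptor of mycobacterial cord factor, read 7.16, 7.27 and 9.21 in controls and 13.8, 9.71 and 11.2 in deleted cells, at 0.21 ± 0.06 (SE, adjusted p = 0.052). Its adjusted p was 0.0378 without deleted array 2 and between 0.0516 and 0.154 without any other 1 array. The second Clec4e probe set read 5.98, 5.55 and 7.55 in controls and 7.57, 7.53 and 6.45 in deleted cells, which overlap, at 0.05 ± 0.04 (SE, adjusted p = 0.54 with each probe set tested on its own). Clec4e thus stood near the mean intensity of 7.70 below which genes were not tested. Clec4n, the receptor of fungal mannans, was between 6.84 and 9.96 on the 6 MLL-AF9 arrays with its brighter probe set, and under that mean over all 12 arrays, so it was not tested.

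Clec7a was bright and steady in MLL-AF9 leukemia. It read 249, 279 and 244 in controls and 273, 224 and 234 in deleted cells, and these values overlap. The log2 fold change was −0.08 ± 0.08 (SE, limma adjusted p = 0.65).

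The calls of Clec5a, Trem3, Trem1 and Clec4d held without any 1 of the 6 MLL-AF9 arrays, whereas those of Trem1 and Clec4d ended when all 12 arrays shared 1 estimate of the spread (adjusted p of 0.13 and 0.71). With that shared spread 1.4% of all genes were called in MLL-AF9 leukemia, 13.8% in MLL-NRIP3 leukemia and 4.29% in the difference of the responses. Mature neutrophil markers rose as the called receptors did. In the fit of the MLL-AF9 arrays alone 14 of 15 were called higher, where 3.8% of all genes were called higher and 4.46% lower. Their summed intensity was 9599 to 13839 on control and 30813 to 33846 on deleted arrays, and none was under the filter in controls. Primary granule and promyelocyte markers were called higher in 5 of 8 cases, with sums of 11063 to 11611 and 14598 to 17239. Of 16 monocyte and macrophage markers 7 were called lower and 1, Lyz2, higher, with sums of 4261 to 4966 and 5132 to 5652. Markers of eosinophils, basophils and mast cells were called lower in 3 of 6 cases, of dendritic cells in 2 of 9 and of B cells in 2 of 5, and none higher. Of the 8 markers of the sorted leukemia cells 2, Cd34 and Meis1, were called lower and 1, Itgam, higher. Cd34 went from 543 ± 36.1 to 400 ± 60.9. The platelet integrin gene Itga2b, called lower, went from 67.5 ± 2.13 to 50.7 ± 4.87 (SD, n = 3 each). The part of these cells in the receptor signal was not tested.

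In MLL-NRIP3 leukemia, the second comparison, the receptors did not rise together. Trem3 was at 2.03-fold lower in Rictor-deleted cells and missed the threshold narrowly (limma adjusted p = 0.051). Clec4e and Clec4d, dim in the other model, were bright with and without Rictor, and Clec5a stayed dim. Of the 6 genes tested, limma called none, and 1.53% of all genes were called, 0.779% higher and 0.748% lower. An unadjusted p under 0.05 was found for 2 of the 6 (Trem3 and Clec4e) and for 17.7% of all genes.

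Trem3 read 510, 521 and 597 on the MLL-NRIP3 control arrays and 263, 187 and 348 on the deleted arrays. Every deleted array was below every control, at a log2 fold change of −1.02 ± 0.20 (SE), while 12.7% of all genes had deleted arrays that all lay below the controls. The adjusted p of Trem3 was 0.313 without control arrays 1 and 2, at −1.16, and 0.0048 when all 12 arrays shared 1 spread. Trem1 read 148, 119 and 81.5 in controls and 73.3, 99.0 and 75.9 in deleted cells. The Trem1 groups overlap through control array 3, and its log2 fold change of −0.40 ± 0.21 (SE, adjusted p = 0.37) was 0.01 without control arrays 1 and 2. Its second probe set, between 10.9 and 23.1, showed −0.06 ± 0.13 (SE). Clec5a read 29.8, 10.5 and 39.1 in controls and 27, 30.6 and 11 in deleted cells, so 1 array of each group was low, and the log2 fold change was −0.10 ± 0.29 (SE, adjusted p = 0.88).

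Among the Fc receptor gamma chain partners, Clec4e read 593, 383 and 613 in MLL-NRIP3 controls and 693, 678 and 894 in deleted cells. The deleted arrays all lay above the controls, as for 9.7% of all genes, with a log2 fold change of 0.52 ± 0.19 (SE, limma adjusted p = 0.22). It was 0.28 without control arrays 1 and 2. The second Clec4e probe set read 156, 87.8 and 212 in controls and 152, 208 and 225 in deleted cells, which overlap, at 0.38 ± 0.28 (SE). Clec4d read 288, 118 and 273 in controls and 188, 189 and 209 in deleted cells. Control array 2 was the lowest for Clec4d and both Clec4e probe sets, and the Clec4d change of −0.11 ± 0.29 (SE, adjusted p = 0.87) turned to 0.10 without control array 1, to 0.06 without control array 3 and to −0.45 without control arrays 1 and 2. The 2 Clec4n probe sets stayed between 1.96 and 9.63 on all 6 arrays.

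Clec7a varied more within the MLL-NRIP3 groups than between them. It read 439, 239 and 109 in controls and 151, 95.3 and 480 in deleted cells, a range of several-fold in each group. The log2 fold change of −0.22 ± 0.59 (SE, limma adjusted p = 0.87) turned to 0.74 without control arrays 1 and 2, with an adjusted p of 0.92, and to 0.23 without control array 1 and 0.24 without deleted array 2.

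Of the 15 mature neutrophil markers 5 were called lower in this model, none higher and 10 neither, with sums of 5636 to 22412 on control and 2238 to 2551 on deleted arrays. The control sums span a wide range. Of the 8 primary granule and 16 monocyte markers limma called none, and 0 and 3 had an unadjusted p under 0.05, as had 17.7% of all genes. Their sums were 14613 to 19925 and 3808 to 5370 in controls, and 16272 to 16493 and 4757 to 5448 in deleted cells. Of other markers limma called 1 of 6 of eosinophils, basophils and mast cells and 1 of 3 of erythroid cells and platelets. It called 1 of 5 of B cells and 1 of 8 of the sorted leukemia cells. Of all genes 0.779% were called higher and 0.748% lower. Fold changes of the 6 were positive for 3 and negative for 3, and those of the 5 B cell markers positive for 3 and negative for 2. The mast cell protease gene Cpa3 read 104 ± 6.63 in controls and 952 ± 668 in deleted cells, the platelet integrin gene Itga2b 42.6 ± 3.75 and 117 ± 15.5, and Cd34, a marker of progenitors, 287 ± 86.9 and 788 ± 205, all higher. The B cell gene Ighm was lower, with 689 ± 463 and 51.8 ± 14.1 (SD, n = 3 each). The part of these cells in the receptor signal of this model was not tested.

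**Figure D2:**
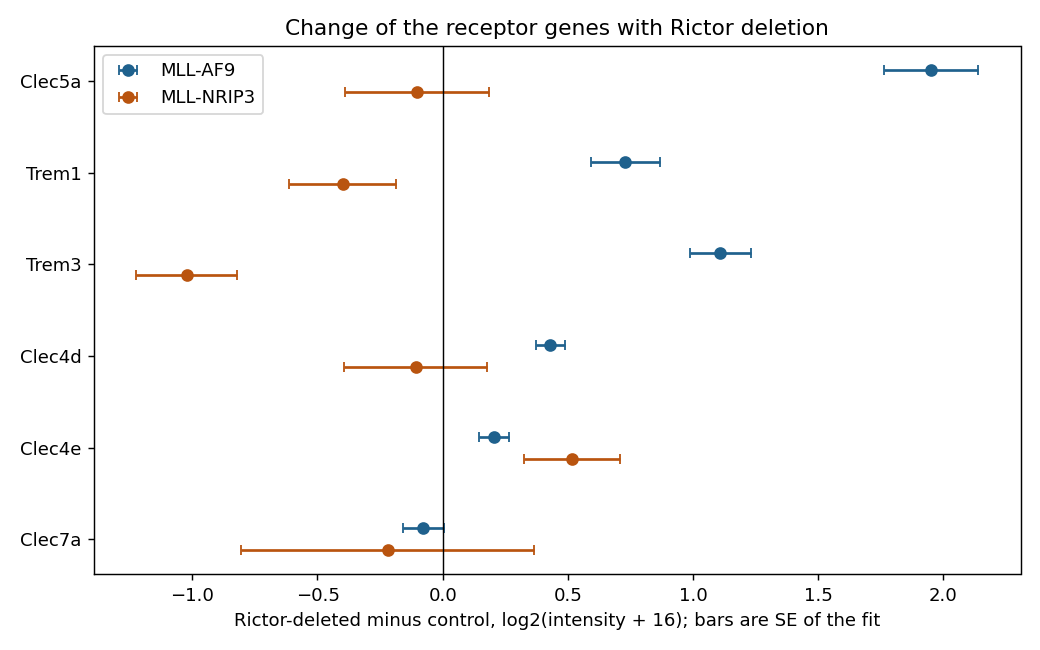
Change with Rictor deletion of the 6 tested receptor genes on the scale of log2(intensity + 16), in MLL-AF9 (blue) and MLL-NRIP3 (orange) leukemia, with the SE of the limma fit as bars. Clec5a, Trem1 and Trem3 are at 1.95, 0.73 and 1.11 in MLL-AF9 and at −0.10, −0.40 and −1.02 in MLL-NRIP3 leukemia, whereas Clec4e is above 0 in both.

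The third comparison set the responses of the models against each other. By Xist and Eif2s3y, sex differed with genotype in MLL-AF9 leukemia only, so this contrast cannot tell the fusion from sex. Trem3 and Clec5a passed the threshold of this contrast, which the choice of the genes also used, and the other 4 genes did not. The response of Trem3 in MLL-NRIP3 leukemia was lower than that in MLL-AF9 leukemia by a log2 difference of −2.13 ± 0.29 (SE, limma adjusted p = 8.9e-04), and that of Clec5a by −2.05 ± 0.45 (SE, adjusted p = 0.017). In all 4.78% of 12573 genes were called in this contrast, 2.53% in the same direction and 2.25% in the other. For Trem1 the difference was −1.13 ± 0.31 (SE, adjusted p = 0.056). It was called under 6 other settings that kept all arrays, at an adjusted p between 0.0356 and 0.049, and with a separate spread for each model (0.0163), an alternative added after seeing the data. For Clec4d the difference was −0.54 ± 0.27 (adjusted p = 0.32), for Clec4e 0.31 ± 0.21 (0.49) and for Clec7a −0.14 ± 0.53 (0.93), each with its SE. The call of Clec5a ended without MLL-NRIP3 control array 1 (0.054) or deleted array 1 (0.056), and the difference of Trem1 was −0.72 (0.55) without control arrays 1 and 2, while Clec4d was called without control array 2 (0.0135).

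**Figure D3:**
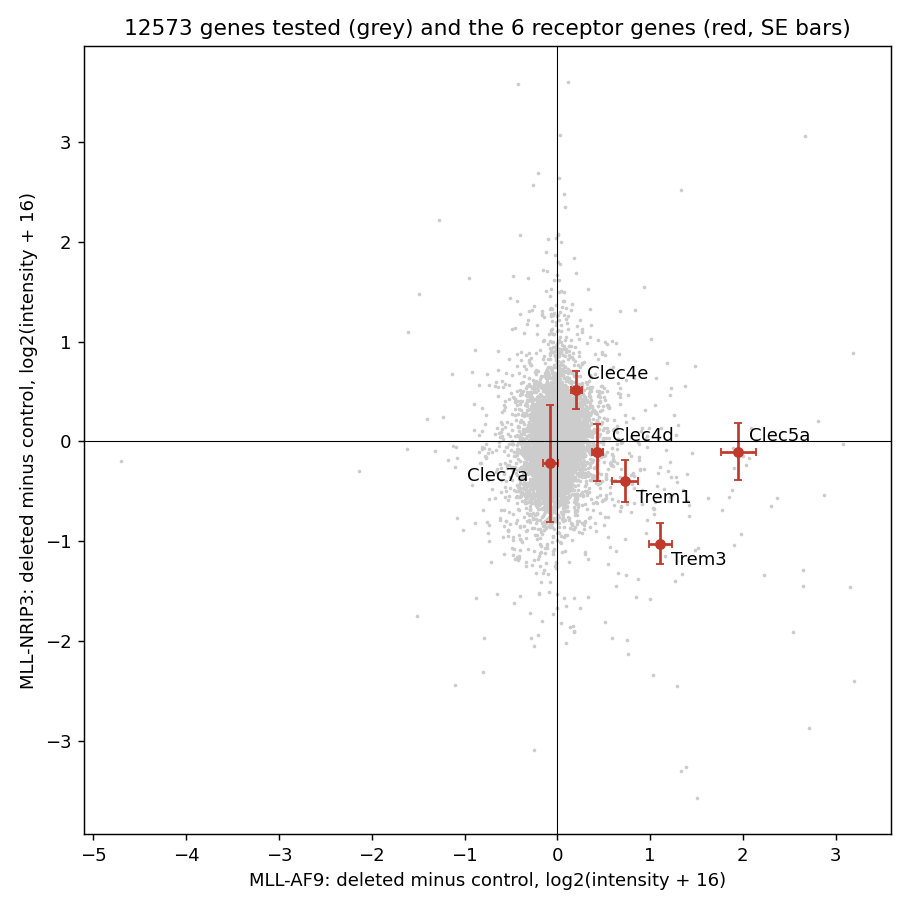
Change with Rictor deletion in MLL-NRIP3 leukemia (vertical axis) against that in MLL-AF9 leukemia (horizontal axis), on the scale of log2(intensity + 16), for 12573 genes (grey) and the 6 receptor genes (red, SE bars). Trem3 and Trem1 lie at the lower right, Clec5a on the right near a vertical value of 0, and Clec7a and Clec4e near the centre.

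Clec4e and Clec4d differed more between the models than between the genotypes of a model. As the models are not on 1 scale, ranks within an array are given. In MLL-AF9 leukemia the brighter Clec4e probe set ranked between the 46.4th and 52.3rd percentile of all probe sets on control arrays and between 53.9 and 59.9 on deleted arrays, and in MLL-NRIP3 leukemia between 93.3 and 95.8 and between 96.3 and 97.6. The 4 groups thus stand in that order without overlap. Clec4d ranked between 57.2 and 58.6 and between 64.3 and 66.8 in MLL-AF9 leukemia, and between 81.3 and 90.7 and between 86.2 and 88.7 in MLL-NRIP3 leukemia, where both groups overlap. After quantile normalization of all 12 arrays, MLL-NRIP3 controls exceeded MLL-AF9 controls by 4.11 on the log2 scale for Clec4e and by 2.56 for Clec4d, with a median of 0.05 over all genes. Only 4 genes, Clec4e included, differed by as much as Clec4e in that direction, and 27 by as much as Clec4d. The fusion cannot be told apart from any other difference between these sets of arrays, and no test was made across them.

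The other receptors were closer between the models. Trem3 ranked between 94.0 and 96.1 in MLL-AF9 controls and between 94.9 and 95.7 in MLL-NRIP3 controls, with 97.9 to 98.4 and 86.1 to 92.9 in the deleted groups. Its order was thus MLL-NRIP3 deleted lowest, both controls alike, and MLL-AF9 deleted highest. Trem1 ranked lowest in MLL-AF9 controls, between 66.8 and 73.4, and its other groups overlapped between 74.9 and 83.6. Clec5a ranked between 83.6 and 88.3 in MLL-AF9 deleted cells and between 44.3 and 68.1 in the other 3 groups, which overlapped. Clec7a ranked between 77.8 and 95.0 with all 4 groups overlapping, and the second Clec4n probe set never passed 13.3.

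**Figure D4:**
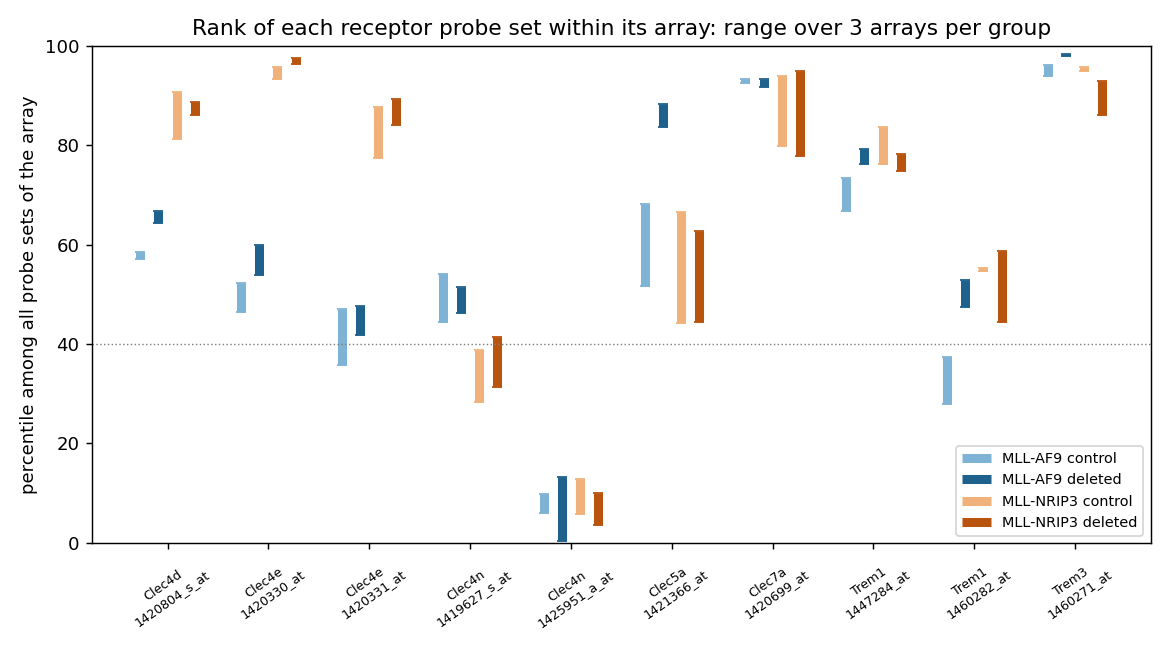
Rank of each of the 10 receptor probe sets among all 45101 probe sets of an array, as a percentile, with a bar from the lowest to the highest of 3 arrays per group; the dotted line marks the 40th percentile. The Clec4d and Clec4e probe sets stand higher in MLL-NRIP3 than in MLL-AF9 leukemia, Clec5a stands apart in MLL-AF9 deleted cells, and the Clec4n probe sets stay at or under 54.0 on every array.

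Other genes of both receptor families are given by their counts, and no test set these lists against the receptors. Of 24 other C-type lectin genes tested, 2 were called higher and 4 lower in MLL-AF9 leukemia (median log2 fold change −0.06, against −0.01 over all genes). Shares of all genes called there were 3.8% higher and 4.46% lower. Clec4a2, an inhibitory receptor and a near neighbour of Clec4n, rose there, with 371 ± 101 in controls and 540 ± 62.1 in deleted cells (SD, n = 3, limma adjusted p = 0.045). It fell in MLL-NRIP3 leukemia, with 264 ± 25.2 and 149 ± 12.7 (SD, n = 3, adjusted p = 0.036). Ly75, an endocytic receptor of dendritic cells, rose in MLL-AF9 leukemia from 3.87 ± 0.33 to 10.8 ± 2.03. Ly75 was under the filter on dim genes on every MLL-AF9 control array. Its mean over all arrays passed that filter only with the MLL-AF9 deleted arrays included. It was thus tested, and counted among the 2 called higher, with the help of the group where it is high. The mannose receptor gene Mrc1 fell from 20.5 ± 3.24 to 8.39 ± 0.33, Clec2i from 213 ± 34.9 to 119 ± 21.9 and Cd209a, a marker of some dendritic cells, from 26.5 ± 7.92 to 12 ± 1.18 (SD, n = 3 each). Clec10a, a galactose-binding lectin, was called higher in MLL-NRIP3 leukemia, with 27.4 ± 11.4 in controls and 74.0 ± 5.60 in deleted cells (SD, n = 3, limma adjusted p = 0.033).

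Among 9 other genes of the Trem and Cd300 families, 2 were called higher in MLL-AF9 leukemia and none lower. There 3.8% of all genes were called higher and 4.46% lower. Cd300lf, a receptor with inhibitory motifs, rose from 25.9 ± 3.65 to 94.1 ± 10.6 (SD, n = 3; adjusted p = 9.3e-06 by limma), and Treml4, the next gene after Trem3, from 6.19 ± 1.73 to 13.2 ± 3.55 (adjusted p = 0.012). In MLL-NRIP3 leukemia limma called none of the 9, and 4 had an unadjusted p under 0.05, against 17.7% of all genes. There Cd300lf read 88.1 ± 35.7 and 50.1 ± 1.76, Treml4 8.76 ± 5.18 and 3.25 ± 0.71, and Cd300lb 363 ± 155 and 131.5 ± 25.1 in control and deleted cells (SD, n = 3 each).

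On the chromosomes, RefSeq places Trem1, Trem3, Treml4, Treml2 and B430306N03Rik next to each other. Treml2 read 148 in MLL-AF9 controls and 167 in deleted cells on average and was not called (adjusted p = 0.21). B430306N03Rik was called higher there, from 52.8 ± 5.62 to 94.5 ± 9.72 (SD, n = 3; adjusted p = 0.0011 by limma). Next to Clec7a, the oxidized lipoprotein receptor gene Olr1 fell in MLL-AF9 leukemia by 0.41 ± 0.08 (SE) on the log2 scale (limma adjusted p = 0.010). Close to Clec5a the maltase gene Mgam was called higher, at 0.48 ± 0.06 (SE, adjusted p = 3.4e-04), with a mean of 11.7 in controls and 22.6 in deleted cells.

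The adaptor gene Fcer1g and the kinase gene Syk were not called in either model. Fcer1g went from 1272 ± 67.7 to 1139 ± 38.6 in MLL-AF9 leukemia and from 2255 ± 305 to 1826 ± 218 in MLL-NRIP3 leukemia (SD, n = 3 each), and Syk from 355 ± 16.4 to 293 ± 31.0 in the former. Of 22 adaptor and proximal signalling genes tested, 1 was called in MLL-AF9 leukemia, where 8.26% of all genes were called. It was Fgr, a Src-family kinase of myeloid cells. It rose from 54.1 ± 11.6 to 146 ± 23.3 (SD, n = 3; adjusted p = 2.0e-04 by limma). In MLL-NRIP3 leukemia limma called none of the 22, and 5 had an unadjusted p under 0.05, against 17.7% of all genes. The median log2 fold change was −0.06 in MLL-AF9 and −0.23 in MLL-NRIP3 leukemia.

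Among 14 inhibitors of the pathway, 2 were called higher and 3 lower in MLL-AF9 leukemia, and 1 lower in MLL-NRIP3 leukemia. Shares of all genes were 3.8% higher and 4.46% lower in the former and 0.748% lower in the latter. Dok2, an adaptor that restrains tyrosine kinase signals, was called in both models in opposite directions. It rose from 28.3 ± 5.00 to 57.6 ± 3.82 in MLL-AF9 leukemia (limma adjusted p = 6.8e-04) and fell from 127 ± 23.0 to 39.9 ± 1.10 in MLL-NRIP3 leukemia (SD, n = 3; adjusted p = 0.0079 by limma). The inhibitory receptor gene Pilra rose in MLL-AF9 leukemia from 63.4 ± 16.8 to 170 ± 38.4, and its activating, DAP12-paired relative Pilrb1 from 130 ± 42.5 to 248 ± 23.1. The ubiquitin ligase gene Cblb fell from 82.5 ± 6.57 to 61.3 ± 3.40 and the adaptor Dok3 from 252 ± 14.5 to 210 ± 2.75 (SD, n = 3 each). Of 10 other receptors that use DAP12 or the Fc receptor gamma chain, Pilrb1 and the integrin gene Itgam were called higher in MLL-AF9 leukemia. The share of all genes called higher there was 3.8%. In MLL-NRIP3 leukemia limma called none, and 3 had an unadjusted p under 0.05, against 17.7% of all genes.

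Other pattern recognition receptors were called higher in 4 of 17 cases in MLL-AF9 leukemia and lower in 1. There 3.8% of all genes were called higher and 4.46% lower. Fpr2 rose from 53.6 ± 22.5 to 591.5 ± 156.5 (SD, n = 3 each). The peptidoglycan-binding protein gene Pglyrp1 rose from 265 ± 42.8 to 547 ± 83.9 and the cytosolic receptor gene Nod1 from 33.1 ± 3.00 to 49.4 ± 2.96, and Tlr13 fell from 29.1 ± 5.17 to 18.3 ± 3.64 (SD, n = 3 each). In MLL-NRIP3 leukemia Tlr1 fell from 127 ± 8.07 to 32.3 ± 4.63 (SD, n = 3; adjusted p = 0.0020 by limma) and the other 16 were not called. The genes that Syk, Card9 and NF-kB induce in phagocytes were mostly not called: in MLL-AF9 leukemia 1 of 16, Tnfaip3, an inhibitor of NF-kB, was called, from 133 ± 13 to 93.0 ± 7.35. In MLL-NRIP3 leukemia 3 of the 16 were called higher and none lower, against 0.779% and 0.748% of all genes. The chemokine gene Cxcl2 went from 37.7 ± 16.6 to 168 ± 52.4 and Nfkbiz from 95.6 ± 38.7 to 339 ± 78.2. The cyclooxygenase gene Ptgs2 went from 5.47 ± 1.21 to 26.5 ± 10.2 (SD, n = 3 each). Ptgs2 was under the filter on every array outside the MLL-NRIP3 deleted group. It was thus tested, and counted among the 3, only through the group where it is high. A part of the receptors in these changes was not tested.

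**Figure D5:**
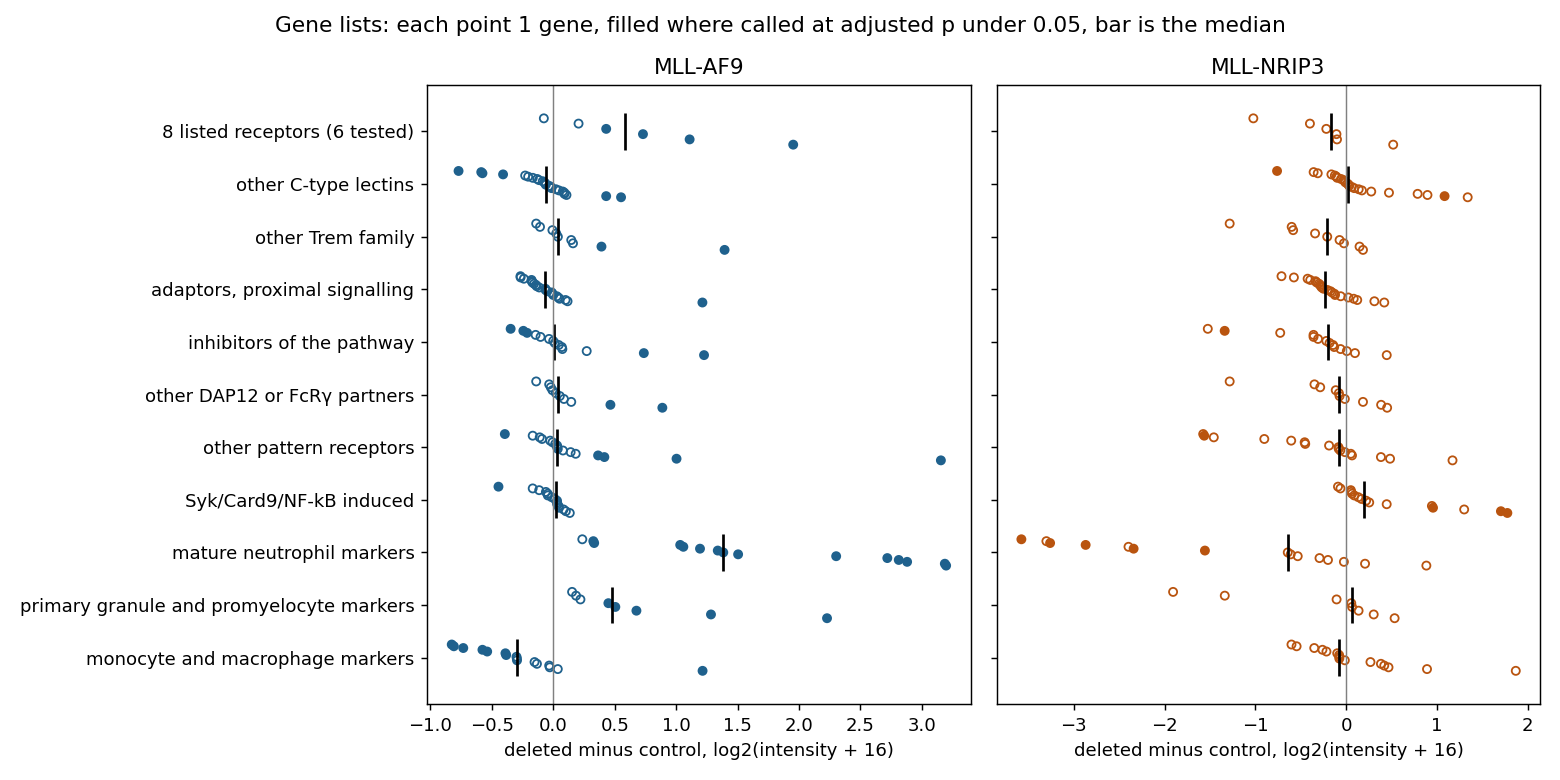
Change with Rictor deletion on the scale of log2(intensity + 16) for the receptor genes and 10 gene lists, in MLL-AF9 (left) and MLL-NRIP3 (right) leukemia; each point is 1 tested gene, filled where its adjusted p is under 0.05, and a bar marks the median. The medians of the 6 receptors are 0.58 and −0.16, those of the mature neutrophil markers 1.38 and −0.64, and those of the other family and pathway lists between −0.23 and 0.19.

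The genes whose pattern was most like that of a receptor were found by Pearson's r over the 12 arrays, after centring within each model, and are given as a description, since the arrays share their groups. For Clec5a they were Ceacam10 (r = 0.960, Spearman's rho = 0.979) and Dhrs7 (0.957 and 0.944). For Trem1 they were Fmo5 (r = 0.970, rho = 0.986) and Rdh12 (0.957 and 0.958), and for Trem3 Rnf166 (0.946 and 0.909) and Fbxl14 (0.939 and 0.909). Ceacam10, like Clec5a, rose in MLL-AF9 leukemia, from 12.8 ± 1.60 to 108 ± 39.3, and read 19.9 ± 8.82 and 15.9 ± 6.68 in MLL-NRIP3 control and deleted cells (SD, n = 3 each). Clec4d was most like Kif18b (r = 0.924, rho = 0.965) and Gatad1 (0.890 and 0.881), Clec4e like Hspb11 (0.938 and 0.734) and Armcx6 (0.930 and 0.713), and Clec7a like Ap1s2 (0.966 and 0.944) and Sez6 (0.928 and 0.762). Among the receptors themselves, after centring within each of the 4 groups, the neighbours Clec4d and Clec4e had r = 0.89 over the 12 arrays, and the other 14 pairs lay between −0.44 and 0.55. Without that centring, Clec4d and Clec4e had r = 0.91 over the MLL-AF9 arrays, where both are dim, and 0.52 over the MLL-NRIP3 arrays. MLL-NRIP3 control array 2, which stood apart in array quality, was low for both (118 and 383). The part of that array in the r of 0.89 was not tested.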

How the data were processed

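Total RNA (7 µg per array, per the labels) was hybridized to Affymetrix arrays. The authors deposited linear intensities, 1 per probe set and array. The sources used here do not name a summarisation or normalization method, and each model seems normalized on its own. Groups and replicate numbers came from the sample titles. Of 45101 probe sets, 34958 had 1 symbol in the platform annotation, 932 several and 9211 none. The brightest probe set stood for a gene. Genes had to reach a mean of 7.70 over all arrays (the 40th percentile over probe sets), which left 12573. Values were used as log2(intensity + 16).

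Deleted and control cells were compared within each model's own 6 arrays (4 residual degrees of freedom) with limma 3.58.1 in R 4.3.3 (lmFit, eBayes with a trend), since replicates were tighter in MLL-AF9 leukemia. The difference of responses used all 12 arrays with 1 variance weight per model. Tests were 2-sided and adjusted by Benjamini-Hochberg over all genes tested. On simulated data both within-model fits kept false calls near the threshold, while the difference gave more false calls than its threshold. The simulated noise was independent between arrays. It therefore cannot show how arrays that stand apart together, as MLL-NRIP3 control arrays 1 and 2 do, affect false calls. Exact permutation of 3 against 3 arrays reaches 0.1 at best and was not used.

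The members, gene lists and alternatives were chosen with earlier results of these data known. Of each list, up to 4 genes with the smallest p per contrast could be named, and per receptor the 2 genes of most like pattern; the chromosome neighbours Treml2, B430306N03Rik, Olr1 and Mgam were named after their values were seen. Sequences and gene order are from RefSeq, GRCm38.p6; 6 of the 8 genes had a promoter entry. Tables and figures used Python 3.11.15, pandas 2.3.3 and matplotlib 3.10.9.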

Additional observations from a re-analysis of the deposited data

Results flagged for a closer look

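Clec5a and Trem3 passed the threshold of the test of the difference between the models, a description here, since the genes were chosen with these values known and the test gave excess false calls on simulated data. The Clec5a call ended with robust moderation (adjusted p = 0.0599) and without MLL-NRIP3 control array 1 (0.054) or deleted array 1 (0.0561) by limma. The log2 response in MLL-NRIP3 minus that in MLL-AF9 leukemia was −2.05 for Clec5a and −2.13 for Trem3. All 3 deleted arrays were above the controls in MLL-AF9 leukemia for both genes, and in MLL-NRIP3 leukemia all 3 were below the controls for Trem3 while the Clec5a values overlapped. As sex of the cells differed with genotype in MLL-AF9 leukemia only, fusion and sex cannot be told apart in this difference.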

How the results depend on the processing

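In MLL-AF9 leukemia 4 or 5 receptor genes were called under every alternative run except 1 spread shared by 12 arrays, which left 2. In MLL-NRIP3 leukemia the count of 0 became 1, each time Trem3, with 12 arrays and either 1 shared spread or 1 variance weight per model, median centring, the filter at the 60th percentile, robust moderation and the replicate block, and was 0 to 1 without single arrays. In the difference the count of 2 became 1 with robust moderation (Clec5a at an adjusted p of 0.060), was 1 to 3 without single arrays, and was 3, with Trem1, under 1 shared spread, both quantile normalizations, the filter at the 60th percentile, a pseudocount of 1, the replicate block and separate spreads. Values that changed sign belonged to genes not called in that contrast: without MLL-NRIP3 control arrays 1 and 2 together, Clec7a was at 0.741 and Trem1 at 0.008 in MLL-NRIP3 leukemia and Clec7a at 0.818 in the difference. Without single arrays, Clec4d ranged from −0.489 to 0.1, Clec5a from −0.409 to 0.142 and Clec7a from −0.841 to 0.237 in MLL-NRIP3 leukemia, and Clec7a from −0.764 to 0.314 in the difference. The cause was not tested. Clec4e in MLL-AF9 leukemia had an adjusted p between 0.0442 and 0.931 over the alternatives that kept all arrays.

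Over all genes, the 1039 calls in MLL-AF9 leukemia became 176 with 1 shared spread, and 582 and 661 without deleted array 2 or 3. The 192 in MLL-NRIP3 leukemia became 1734 with 1 shared spread, 524 with a weight per model, 82 with the mean of probe sets, 27 without control arrays 1 and 2, and 30 to 862 without single arrays. The 601 of the difference became 246 without control arrays 1 and 2 and 289 to 1113 without single arrays.

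Whether same-numbered arrays share more than a number is not given. Their deviations from the group means correlated between −0.135 and 0.056, and those of differently numbered arrays between −0.139 and 0.18. With the replicate block, 5 receptor genes were called in MLL-AF9 leukemia, 1 in MLL-NRIP3 leukemia and 3 in the difference. Clec4d and Clec4e in MLL-AF9 leukemia, and Clec4n throughout, are limited by a signal close to background.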
